A study of Mus musculus with 2 samples.

Results

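Neutrophils with little RNA for the chemokines Ccl3 and Ccl4 were examined in EMT6 tumors by single-cell RNA sequencing. A cell was taken as a neutrophil when S100a8, S100a9, Csf3r, Cxcr2 and Il1r2 together made up at least 1% of its unique molecular identifiers (UMIs, each standing for 1 captured RNA molecule) and it held at most 2 UMIs of the keratins Krt8 and Krt18, which mark the tumor cells. The members were then chosen by their Ccl3 and Ccl4 values, which together had to stay under 0.2% of UMIs. Cells with fewer than 200 genes, or in which mitochondrial RNA reached 20% of UMIs, had been left out. This gave 893 cells of the 23657 in both libraries, of which 275 of 16115 came from the Olaparib + LLY-283 library and 618 of 7542 from the Combo library. EMT6, a mouse mammary carcinoma line, had been injected under the skin of BALB/c mice at 200000 cells. Both groups received LLY-283, an inhibitor of the arginine methyltransferase PRMT5, at 50 mg/kg for 3 days on and 4 days off, and the PARP inhibitor Olaparib at 50 mg/kg daily. The Combo group also received antibody against PD-1, 200 µg once every 3 days. The mice were females, 5 to 6 weeks old when bought. Their purchase is listed as BALB/c (nude), whereas the injected mice are described as immunocompetent. No untreated, single-drug or anti-PD-1-only library was analysed here. Each library pooled the tumors of 3 mice, so a library, its pool and its group cannot be told apart, no spread between animals can be computed, and no test is given. Intervals are exact 95% intervals (Clopper-Pearson for shares, Poisson for UMI sums, binomial for ratios) and cover counting error only.

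Neutrophils are short-lived granulocytes that leave the bone marrow after a fixed sequence of granule protein synthesis. Azurophil granule proteins such as myeloperoxidase are made first, at the promyelocyte stage, specific granule proteins such as lactoferrin follow in myelocytes, and gelatinase granule proteins and surface receptors come last. Mature cells are drawn into tissue by CXCR2 ligands and respond to G-CSF through Csf3r. In tumors they persist in several states, some of which secrete chemokines such as Ccl3 and Ccl4 and carry the checkpoint ligand PD-L1, the product of Cd274.

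The 2 libraries caught these cells at very different depth. The median cell held 662 UMIs and 396 genes in the Olaparib + LLY-283 library and 1915.5 UMIs and 868.5 genes in the Combo library, and 82.2% and 9.06% of the cells had fewer than 1000 UMIs. Summed over cells, the data rest on 247257 and 1298382 UMIs. Levels below are CPM, the UMIs of a gene per 1000000 UMIs summed over the cells of a population, and log2 ratios were computed with 0.5 UMI added to each gene. Neutrophils with at least 0.2% of UMIs from Ccl3 and Ccl4 (419 and 651 cells, called Ccl-high below) had nearly the same median depth within each library, 685 and 1984 UMIs, whereas the other non-tumor cells (5006 and 1659) had 3041 and 2479. The median mitochondrial share was 1.04% and 1.03%. The libraries shared 39 barcodes, and 0 of them were members in both.

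With 1 or 2 UMIs of Ccl3 and Ccl4 deciding the side of a shallow cell, the choice of members depended on depth. No UMI of either chemokine was found in 68.7% and 61.8% of the members, and exactly 1 in 26.9% and 19.6%. Just inside the threshold, between 0.1% and 0.2% of UMIs, lay 68 and 105 cells with 15280 and 23902 CPM of Cxcl2, and just outside it, between 0.2% and 0.3%, lay 32 and 67 cells with 22280 and 27405 CPM. At the edge of the neutrophil share, 51 and 60 non-tumor cells with 1% to 1.5% of UMIs from the 5 genes held 4347 and 3781 CPM of S100a8, and the 95 and 93 cells with 0.5% to 1%, which were not taken, held 2623 and 2457 CPM.

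Within the Olaparib + LLY-283 library the members made up 4.82% of the 5700 non-tumor cells (interval 4.28 to 5.41%), and within the Combo library 21.1% of 2928 (19.6 to 22.6%). Non-tumor means only at most 2 UMIs of Krt8 and Krt18, which tumor cells poor in keratin can also meet. A UMI of Ptprc, which encodes the leukocyte protein CD45, was found in 612 of 5006 and 712 of 1659 other non-tumor cells. These cells were thus unlike between the libraries, as denominator and as comparison, and their makeup was not tested. Neither deposited library held a cell under 500 UMIs, so neutrophils below that depth could not be counted. The lower quartile of the members was 575.5 UMIs in the Olaparib + LLY-283 library, close to this floor, and 1529 UMIs in the Combo library. How many neutrophils the floor removed from either share is not known. The intervals of the shares lie far apart, but the value also moves with the rule. It was 1.89% and 12.5% when the keratin limit was set at 0.1% of UMIs, and 1.24% and 22.9% when 500 genes per cell were required. Of all neutrophils, the members were 39.6% (36.0 to 43.4%) with Olaparib + LLY-283 and 48.7% (45.9 to 51.5%) with the antibody added. With every neutrophil thinned to 500 UMIs, 32.0% (28.5 to 35.6%) of 694 and 42.9% (40.1 to 45.6%) of 1269 neutrophils held no UMI of Ccl3 or Ccl4. Thinned to 1000 UMIs, which left only 106 and 1173 neutrophils, the shares were 27.4% (19.1 to 36.9%) and 34.3% (31.6 to 37.1%), and the intervals overlap.

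The label was compared with a gene of the same lineage that the rule had not named. Retnlg, which encodes a resistin-like protein of mouse neutrophils and lies at chr16:48872621-48874496 (mm10, plus strand), stood at 1602 CPM (1448 to 1767) in the Olaparib + LLY-283 members and 1265 CPM (1205 to 1328) in the Combo members. Other non-tumor cells held 5.04 and 5.89 CPM of it. At 500 UMIs per cell a Retnlg UMI was found in 25.8% (20.7 to 31.4%) and 19.4% (16.4 to 22.8%) of the members. Macrophages, taken as cells with C1q genes at 0.5% or more of UMIs, held one in 0 of 369 and 0 of 186. This allows up to 0.813% and 1.61% with a UMI at that depth, and does not limit the share expressing the gene. The median depths of these macrophages before thinning were 2411 and 12833.5 UMIs. Without thinning, 4 and 2 of these macrophages held a Retnlg UMI (1.08% of each), beside 32.7% and 33.5% of the members. The rule genes themselves are given as a description. S100a8 and S100a9, which encode the 2 chains of calprotectin and lie near each other at chr3:90668978-90670035 and chr3:90692632-90695721, stood at 23854 and 39089 CPM in the Olaparib + LLY-283 members and at 37895 and 56939 CPM in the Combo members. Csf3r, the G-CSF receptor, stood at 295 and 952 CPM, Cxcr2 at 453 and 1065 CPM, and the interleukin-1 decoy receptor Il1r2 at 384 and 1017 CPM.

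Defining markers of other granulocytes and of lymphocytes were close to 0. Of the 7 eosinophil genes, 5 and 6 had no UMI, and the list summed to 8.09 and 4.62 CPM. The 10 T and NK genes summed to 4.04 and 28.5 CPM, with Trac, Cd8a and Ncr1 at 0 in both libraries, and the 5 B cell genes to 8.09 and 3.08 CPM. RNA of other tumor cell types was present. The 9 macrophage genes, all detected, summed to 1335 CPM in the Olaparib + LLY-283 members and 742 CPM in the Combo members, with Apoe the most abundant. The 9 dendritic cell genes summed to 1221 and 729 CPM, almost all of it the class II genes, while Flt3, Xcr1, Clec9a and Ccr7 were not detected in the Olaparib + LLY-283 members. The 6 monocyte genes summed to 1238 and 650 CPM, most of it Fn1. The 7 fibroblast genes summed to 2402 and 1837 CPM and the 7 tumor genes to 437 and 186 CPM, with Epcam and Cldn4 at 0. Krt8 made up most of the tumor sum, and the rule itself limits it in each cell. Endothelial genes summed to 178 and 16.9 CPM, muscle genes to 421 and 368 CPM, osteoclast genes, which include Mmp9, to 275 and 411 CPM, mast cell and basophil genes to 4.04 and 6.16 CPM, and red cell genes to 0 and 5.39 CPM. The RNA of some types sat in few cells, with 87.0% and 71.5% of the macrophage UMIs and 96.7% and 91.6% of the dendritic UMIs in the 5% of cells richest in them. For fibroblast genes that share was 57.4% and 65.3%. At least 1 UMI was found in 20.0% and 42.9% of the members for macrophage genes and 53.1% and 78.2% for fibroblast genes. Leaving out cells in which macrophage, dendritic, endothelial and muscle genes together exceeded 0.5% of UMIs removed 17 of 275 and 10 of 618 cells, with 13.8% and 6.92% of all UMIs.

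Genes of mature neutrophils set the members apart from the other non-tumor cells. Of the 20 maturity genes, which exclude the rule genes, 17 had at least 100 UMIs over the members of both libraries (counted genes below), and of these 16 were at least 2-fold higher in the Olaparib + LLY-283 members and 14 in the Combo members than in other non-tumor cells, with none at least 2-fold lower. Across all 2068 genes with that many UMIs, 25.1% and 22.5% were at least 2-fold higher and 3.53% and 14.4% at least 2-fold lower. The median log2 ratio of the list was 5.57 and 4.30, beside -0.03 and -0.15 over all genes. The rule chose these cells by genes of the same lineage, so these ratios describe the choice and are not separate evidence for it.

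Hdc, which makes histamine, stood at 736 CPM in the Olaparib + LLY-283 members and 2294 CPM in the Combo members, against 7.59 and 47.4 CPM in other non-tumor cells. Mxd1, a transcription factor that opposes Myc, stood at 708 and 1543 CPM against 21.2 and 94.3 CPM. Both were higher in the members of both libraries, with a log2 ratio of 4.03 or more. Trem1, an activating receptor of myeloid cells, stood at 469 and 943 CPM, the formyl peptide receptor Fpr1 at 101 and 211 CPM, and Ifitm1 at 2046 and 3610 CPM. Wfdc21 stood at 449 and 771 CPM, and G0s2, an inhibitor of triglyceride breakdown, at 3903 and 6488 CPM against 21.1 and 95.5 CPM in other non-tumor cells. The stefin A genes Stfa2 (324 and 234 CPM), Stfa2l1 (890 and 1055 CPM) and BC100530 (550 and 597 CPM) were also high, but they belong to a family of near-identical copies whose reads cannot be assigned with certainty. Ly6g, whose protein defines mouse neutrophils in cytometry, had only 6 and 17 UMIs, and Cd177 5 and 32 UMIs.

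The 12 genes ranked furthest above other non-tumor cells in both libraries were S100a9, Retnlg, S100a8, BC100530, Stfa2, Rdh12, Mrgpra2b, Cxcr2, Stfa2l1, Wfdc21, Lcn2 and G0s2. Rdh12, a retinol dehydrogenase, stood at 158 and 411 CPM against 1.68 and 3.59 CPM. Apart from the rule genes, all of them were abundant in the Ccl-high neutrophils too, with log2 ratios of the members over Ccl-high cells between -0.59 for Stfa2l1 and 0.70 for Lcn2 in the Olaparib + LLY-283 library. In the Combo library the range ran from -0.39 for BC100530 to 1.03 for Retnlg.

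**Figure D1:**
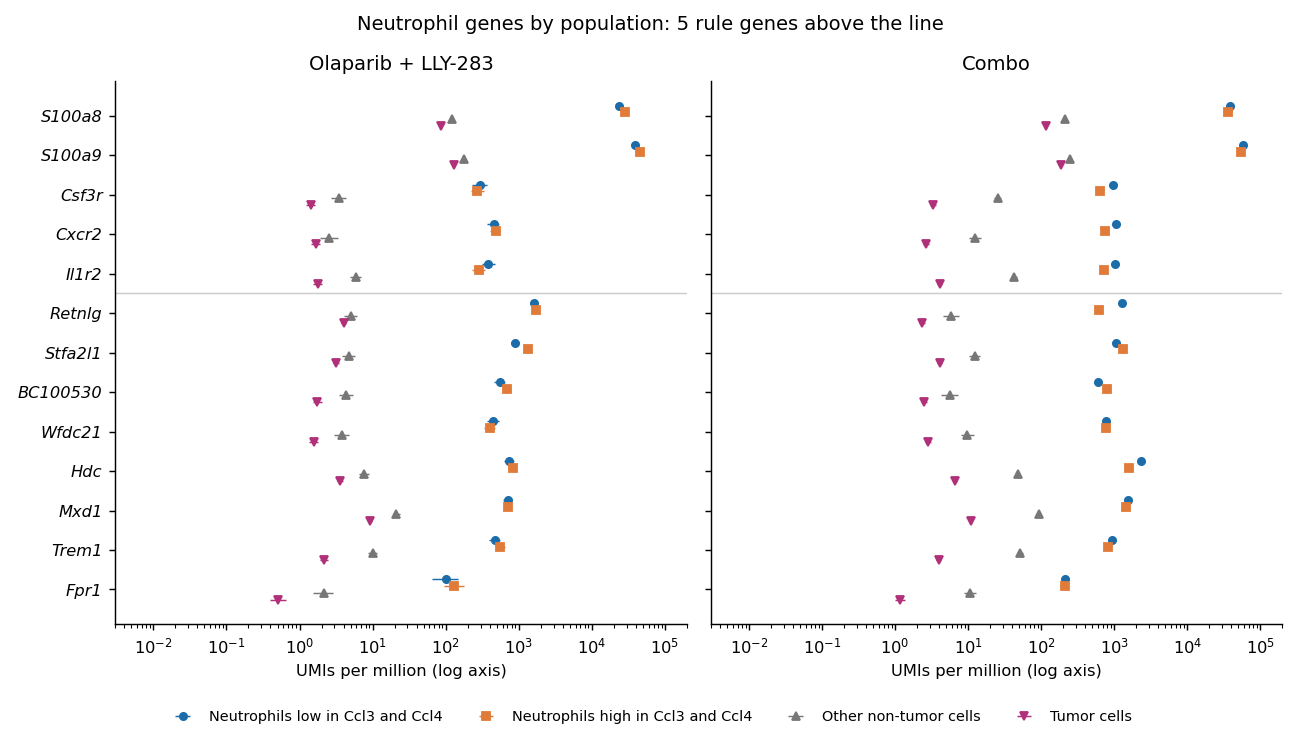
Levels of the 5 rule genes (above the line) and 8 maturity genes (below it) in CPM on a log axis, in 4 populations of each library; points are summed levels and bars exact 95% Poisson intervals. The neutrophils low in Ccl3 and Ccl4 and the Ccl-high neutrophils lie together, well to the right of the other non-tumor cells and the tumor cells, for all 13 genes in both libraries.

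Granule genes differed widely in level, and stages of synthesis were not compared. Of the 8 genes listed for azurophil granules and promyelocytes, 7 were at or near 0. Mpo, Elane, Ctsg and Ms4a3 had 0 UMIs in the members of both libraries, which allows up to 12.1 CPM in the Olaparib + LLY-283 members and 2.31 CPM in the Combo members at 3 counts per library. Prtn3 had 0 and 1 UMI and Prss57 0 and 2 UMIs. Cebpe, the transcription factor of the myelocyte stage, had 0 and 14 UMIs, the latter 10.8 CPM. The eighth, Calr, encodes the chaperone calreticulin, which many cell types express, and stood at 469 and 287 CPM, against 843 and 819 CPM in other non-tumor cells. On the specific granule list, lactoferrin Ltf had 0 and 4 UMIs, the cathelicidin Camp 0 and 1, Ngp 2 and 6, and Chil3 0 and 5. Itgb2l of that list had 0 UMIs in both libraries.

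Some other genes of the specific granule list stood higher. Lcn2, whose product binds bacterial siderophores, stood at 457 CPM in the Olaparib + LLY-283 members and 665 CPM in the Combo members, against 3.92 and 9.09 CPM in other non-tumor cells. Haptoglobin Hp stood at 380 and 900 CPM against 6.47 and 44.0 CPM. Pglyrp1, which binds bacterial peptidoglycan, stood at 170 and 366 CPM against 1.58 and 8.39 CPM. These 3 genes were also higher in the members than in the Ccl-high neutrophils, where Lcn2 stood at 281 and 465 CPM, Hp at 149 and 343 CPM and Pglyrp1 at 98.7 and 116 CPM. The log2 ratio of Hp was 1.34 (0.84 to 1.87) and 1.39 (1.24 to 1.55), that of Pglyrp1 0.78 (0.09 to 1.49) and 1.66 (1.40 to 1.93), and that of Lcn2 0.70 (0.29 to 1.11) and 0.52 (0.37 to 0.67). The collagenase Mmp8 stood at 56.6 and 210 CPM, with a ratio over Ccl-high cells of 0.44 (-0.74 to 1.61) and 1.13 (0.83 to 1.44), so its difference exceeded counting error in the Combo library and did not in the other. Its UMIs came from few cells, with 63.7% of those in the Combo members held by 31 cells. The interval does not cover such clustering. The gelatinase Mmp9 stood at 150 and 337 CPM and Olfm4 at 68.8 and 73.2 CPM.

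Of the 14 genes of the specific granule list 7 were counted, and 5 of these were at least 2-fold above other non-tumor cells in each library, beside 25.1% and 22.5% of all genes, with median log2 ratios of 5.88 and 4.35. One, Lyz2, was at least 2-fold lower in the Combo members, beside 14.4% of all genes. Summed, the list reached 3409 CPM in the Olaparib + LLY-283 members against 2390 CPM in other non-tumor cells, and 3688 against 9937 CPM in the Combo library, that is log2 ratios of 0.51 and -1.43. Neither direction was stable. Among cells of 1000 to 4000 UMIs the ratios were -0.67 and 0.48, against other non-tumor cells with a Ptprc UMI -1.51 and -1.84, with every cell weighing the same -0.31 and -0.85, and with keratins at most 0.1% of UMIs 1.34 and 0.92. The sum and the median therefore differed in sign in the Combo library. Lyz2, the lysozyme gene that macrophages express strongly, held 1670 and 9095 CPM in the other non-tumor cells, and without it the log2 ratios of the sum were 1.30 and 1.70. Lyz2 stood at 1638 and 953 CPM in the members. Its excess over Ccl-high neutrophils in the Olaparib + LLY-283 library, a log2 ratio of 1.05, was -0.54 among members with no UMI of Ccl3 or Ccl4 and 0.30 without the cells rich in markers of other types. Relative to Ccl-high neutrophils, 2 and 3 of the 7 genes were at least 2-fold higher and none lower, beside 3.38% and 3.09% of all genes higher and 2.37% and 1.21% lower.

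**Figure D2:**
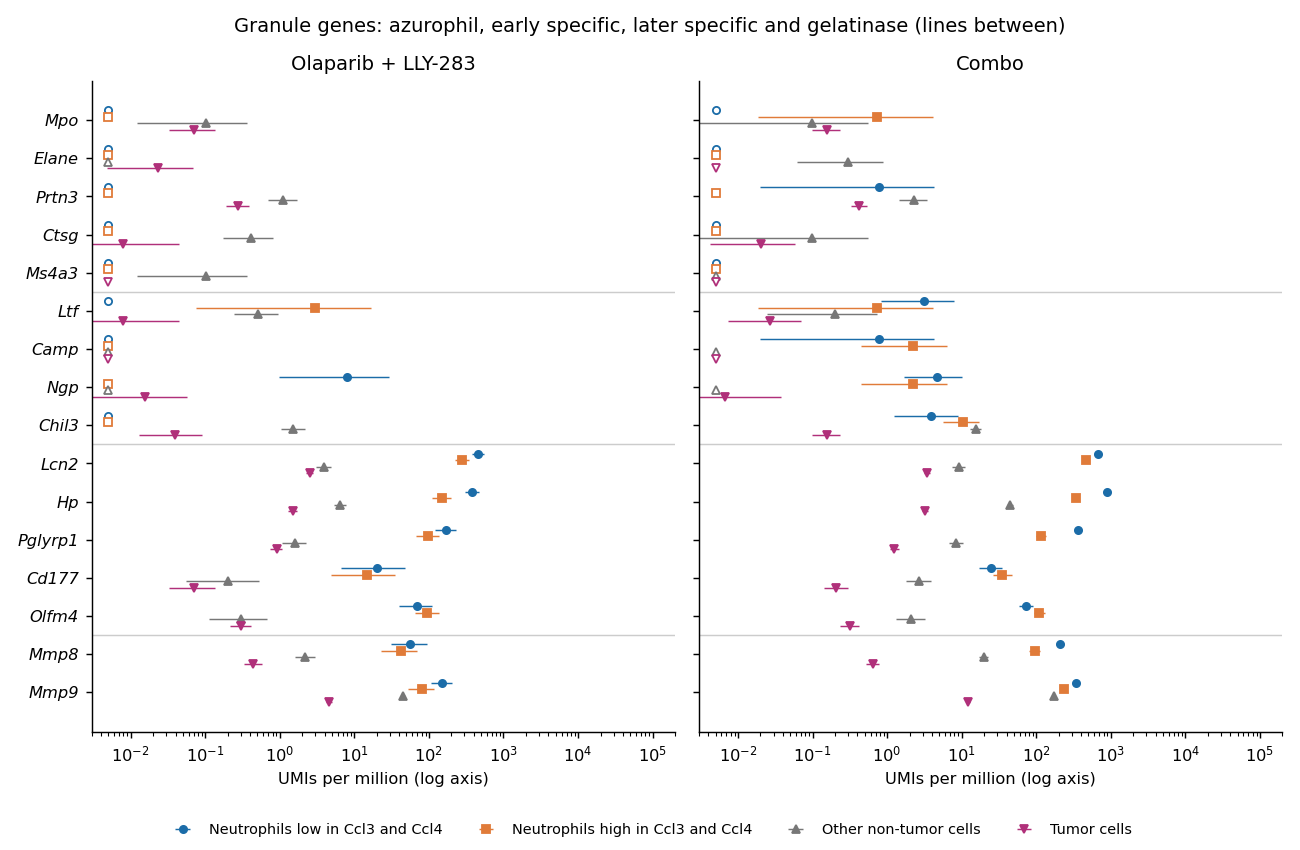
Levels of 16 granule genes in CPM on a log axis, in 4 populations of each library, with exact 95% Poisson intervals; open symbols at the left edge mark 0 UMIs. Mpo, Elane, Prtn3, Ctsg, Ms4a3, Ltf, Camp, Ngp and Chil3 lie at 0 or under 10.3 CPM in both neutrophil populations, and Lcn2, Hp and Pglyrp1 lie higher in the neutrophils low in Ccl3 and Ccl4 than in the Ccl-high neutrophils of both libraries.

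The subunits of the NADPH oxidase, with which neutrophils make superoxide, summed to 1492 CPM in the Olaparib + LLY-283 members and 2478 CPM in the Combo members, against 1160 and 1716 CPM in Ccl-high neutrophils. Rac2, the GTPase that switches the complex on in neutrophils, stood at 182 and 352 CPM against 65.8 and 174 CPM, a log2 ratio of 1.45 (0.70 to 2.27) and 1.01 (0.78 to 1.25), and was the 1 of 6 counted genes at least 2-fold apart, beside 3.38% and 3.09% of all genes higher and 2.37% and 1.21% lower. Among cells with 1000 to 4000 UMIs its ratio in the Olaparib + LLY-283 library was -0.014. Cybb, the catalytic subunit, was near its floor with 9 and 33 UMIs. Macrophage genes were also higher in the members than in Ccl-high neutrophils, at 1335 against 613 CPM and 742 against 341 CPM. The C1q macrophages held 3070 and 3318 CPM of the oxidase genes. The part of macrophage RNA in the oxidase sums was not tested.

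Surface receptors, through which neutrophils sense chemoattractants and microbes, were compared next. Of 18 receptor genes, all counted, 17 and 13 were at least 2-fold higher than in other non-tumor cells, beside 25.1% and 22.5% of all genes. At least 2-fold lower were 0 and 1, beside 3.53% and 14.4% of all genes. Against Ccl-high neutrophils 0 of 18 were at least 2-fold higher or lower in either library, with median log2 ratios of -0.21 and 0.02, but few of all genes were either (3.38% and 3.09% higher, 2.37% and 1.21% lower). The complement receptor C5ar1 stood at 138 and 365 CPM in the members and 105 and 289 CPM in Ccl-high cells. The C-type lectin Clec4e, a sensor of dead cells and mycobacteria, stood at 522 and 1154 CPM against 789 and 1477 CPM.

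Some secreted signals other than Ccl3 and Ccl4 were lower in the members than in Ccl-high neutrophils, and others were not. As the rule split the neutrophils on 2 chemokines, differences in their company are given as a description of that split. The 17 cytokine genes summed to 28472 CPM in the Olaparib + LLY-283 members against 58630 CPM in the Ccl-high cells, and to 42763 against 67339 CPM in the Combo library. Of 10 counted genes 5 and 3 were at least 2-fold lower and 0 higher, beside 2.37% and 1.21% of all genes lower. The medians were -0.89 and -0.83, beside 0.15 and 0.17 over all genes.

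Cxcl2, a ligand of Cxcr2, stood at 14224 CPM in the Olaparib + LLY-283 members and 20779 CPM in the Combo members, against 37365 and 39835 CPM in the Ccl-high cells, log2 ratios of -1.39 (-1.45 to -1.34) and -0.94 (-0.96 to -0.92). Cxcl3, another Cxcr2 ligand, stood at 1970 and 2555 CPM against 5217 and 6306 CPM. Ccl6, a CC chemokine, stood at 1678 and 1418 CPM against 3893 and 3379 CPM. The interleukin-1 receptor antagonist Il1rn followed, with 315 and 447 CPM against 709 and 885 CPM. Interleukin 1 beta was much closer between the 2 populations. Il1b stood at 9241 and 16115 CPM against 10034 and 14952 CPM, log2 ratios of -0.12 (-0.20 to -0.04) and 0.11 (0.08 to 0.14). Oncostatin M, encoded by Osm, stood at 489 and 873 CPM against 631 and 1008 CPM.

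Of genes known from tumor-associated neutrophils, some were lower as well. The 18 genes summed to 10519 CPM in the Olaparib + LLY-283 members, against 15189 CPM, and to 10308 CPM in the Combo members, against 16810 CPM, log2 ratios of -0.53 (-0.60 to -0.46) and -0.71 (-0.74 to -0.67). Of 14 counted genes 6 and 3 were at least 2-fold lower, beside 2.37% and 1.21% of all genes, and 8 and 11 were not. Cd274, which encodes PD-L1, the ligand of the receptor that the antibody blocks, stood at 129 and 156 CPM against 323 and 370 CPM, log2 ratios of -1.30 (-1.94 to -0.74) and -1.25 (-1.49 to -1.01). Hcar2, a receptor for hydroxybutyrate, stood at 865 and 1067 CPM against 2144 and 2402 CPM. Hilpda, a lipid droplet protein induced by hypoxia, stood at 586 and 340 CPM against 1624 and 1112 CPM. The NF-kappa-B inhibitor Nfkbia stood at 1533 and 2449 CPM against 3280 and 4683 CPM, and the transcription factor Xbp1 at 279 and 311 CPM against 562 and 569 CPM. Siglecf, a marker of one tumor neutrophil state, had 0 and 5 UMIs in the members and was near 0 in Ccl-high cells also.

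In both libraries together 13 of 2068 genes (0.629%) were at least 2-fold lower and 18 (0.87%) at least 2-fold higher in the members than in Ccl-high cells. Below Ccl-high cells, besides the rule genes Ccl3 and Ccl4 and the genes above, ranked Zc3h12a (44.5 and 109 CPM against 158 and 246 CPM), which encodes an RNase that degrades cytokine mRNA, tissue factor F3 (68.8 and 67.0 against 149 and 222 CPM), Tgif1 (93.0 and 100 against 206 and 263 CPM), Ifrd1 (log2 ratios of -1.09 and -1.61) and the noncoding E230032D23Rik. Above them ranked Ripor2, an inhibitor of RhoA in neutrophils, at 32.4 and 94.7 CPM against 8.97 and 28.6 CPM, Nfam1, an immunoreceptor, at 97.1 and 181 against 26.9 and 79.2 CPM, and Fgl2, a fibrinogen-like protein, at 166 and 440 against 74.7 and 177 CPM. Ripor2 rested on 8 UMIs in the Olaparib + LLY-283 members, where its interval (-0.21 to 4.40) included 0. Among cells with 1000 to 4000 UMIs the Olaparib + LLY-283 ratio was -0.014 for Ripor2 and -0.19 for Fgl2.

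The ranking also held Mtus1, R3hdm4 and Hacd4, and several genes that macrophages express. Of the latter, C1qa stood at 356 and 103 CPM in the members against 68.8 and 41.8 CPM in Ccl-high cells, and the 5% of members richest in it held 94.3% and 85.1% of its UMIs. Without the cells rich in markers of other types, the log2 ratio of Ccl7, which was not among the markers used to leave them out, was -0.37 and 0.16. The C1q genes were among those markers, so their ratios after that step are set by it. The source of this RNA was not tested.

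**Figure D3:**
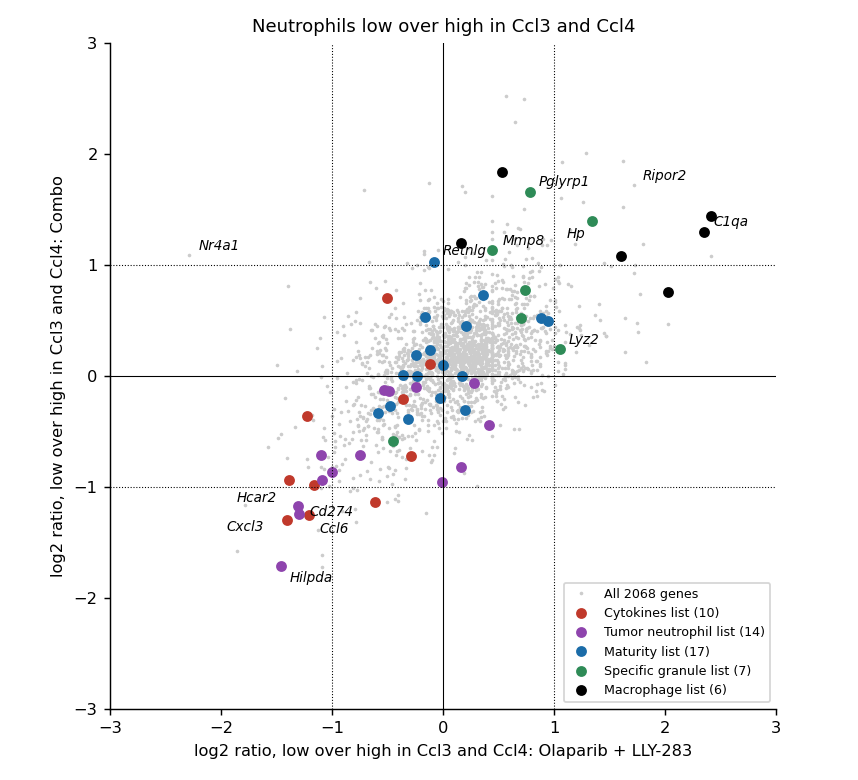
Log2 ratio of the neutrophils low in Ccl3 and Ccl4 over the Ccl-high neutrophils, in the Olaparib + LLY-283 library (horizontal) and the Combo library (vertical), for 2068 genes (grey) and 5 lists (coloured); dotted lines mark 2-fold, and genes past 3 in either library, among them Ccl3, Ccl4 and Mmp3, lie outside the axes. Cytokine and tumor neutrophil genes such as Cxcl3, Cd274 and Hilpda lie at the lower left, Hp and Pglyrp1 at the upper right with the macrophage genes, and most maturity genes near 0.

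Interferon-stimulated genes, antiviral genes switched on through the interferon receptors, were part of the RNA of these neutrophils. The 41 genes summed to 5391 CPM (Olaparib + LLY-283) and 7184 CPM (Combo), against 3443 and 4137 CPM in other non-tumor cells and 5379 and 7747 CPM in Ccl-high neutrophils. Of 21 counted genes, 12 and 14 were at least 2-fold above other non-tumor cells, beside 25.1% and 22.5% of all genes. At least 2-fold lower were 0 and 1, beside 3.53% and 14.4% of all genes. Isg15, a ubiquitin-like protein at chr4:156199424-156200818 (mm10, minus strand), stood at 882 and 1165 CPM, and at 500 UMIs per cell a UMI of it was found in 29.8% and 31.9% of the members. Rsad2, the antiviral enzyme viperin at chr12:26442746-26456452 (minus strand), stood at 222 and 330 CPM, below the 389 and 759 CPM of Ccl-high cells. Ifit1, which binds foreign RNA and lies at chr19:34640871-34650009 (plus strand), stood at 129 and 177 CPM. The signal was uneven. Interferon genes reached 2% of UMIs in 8 of 275 and 33 of 618 members, and the 5% of cells richest in Rsad2 held 80.0% and 69.2% of its UMIs. Those 8 and 33 cells carried 40774 and 32982 CPM of S100a8.

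The promoters of these 3 genes are shown because they carry the interferon-stimulated response element, the DNA motif bound by the factor ISGF3, which was searched on both strands as 2 copies of GAAA with any 2 bases between them. Each line gives bases 150 to 21 before the RefSeq transcript start (GRCm38.p6), read 5′ to 3′ on the strand of the gene, with matches in capitals, at chr4:156200839-156200968 (minus strand), chr12:26456473-26456602 (minus strand) and chr19:34640739-34640868 (plus strand).
Isg15: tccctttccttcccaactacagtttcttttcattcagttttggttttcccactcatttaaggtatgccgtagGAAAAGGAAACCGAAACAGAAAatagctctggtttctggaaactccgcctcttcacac
Rsad2: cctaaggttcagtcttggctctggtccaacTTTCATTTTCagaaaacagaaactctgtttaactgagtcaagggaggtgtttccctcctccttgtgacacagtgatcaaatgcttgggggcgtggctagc
Ifit1: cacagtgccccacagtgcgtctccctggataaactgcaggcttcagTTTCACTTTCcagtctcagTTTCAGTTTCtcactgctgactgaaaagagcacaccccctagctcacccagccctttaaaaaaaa
Isg15 had 3 overlapping matches, Rsad2 1 and Ifit1 2. Of the 41 interferon genes 33 matched a promoter entry, with 38 windows, and 12 windows (31.6%) held the motif, beside 438 of 32851 windows of all genes (1.33%). None of the 16 windows of the maturity genes held it, nor the C/EBP motif TTNNGCAA, which 4.93% of all windows held. The PU.1 motif GAGGAAGT was in 2 of the 16, both of Ly6g (12.5%, beside 1.35% of all windows). A match describes the sequence only and shows no binding.

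Between the libraries, 221 genes (10.7% of 2068) were at least 2-fold higher and 96 (4.64%) at least 2-fold lower in the Combo members. The split depends on the scale and on the minimum of UMIs per gene. It was 642 higher and 987 lower at a minimum of 20 UMIs, and 59 and 13 at 500 UMIs. The 78 genes at least 8-fold above other non-tumor cells in both libraries had a median log2 ratio of 0.93, or 1.91-fold, against 0.03 over all genes, and the same 78 genes had a median of 0.57 in the Ccl-high neutrophils. Relative to them only 11 genes (0.532%) were at least 2-fold higher and 952 (46.0%) at least 2-fold lower. Some markers of other cell types were higher in the Olaparib + LLY-283 members, with Col1a2 at 1088 and 719 CPM and C1qa at 356 and 103 CPM. Their part in the shift, and that of depth, was not tested.

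**Figure D4:**
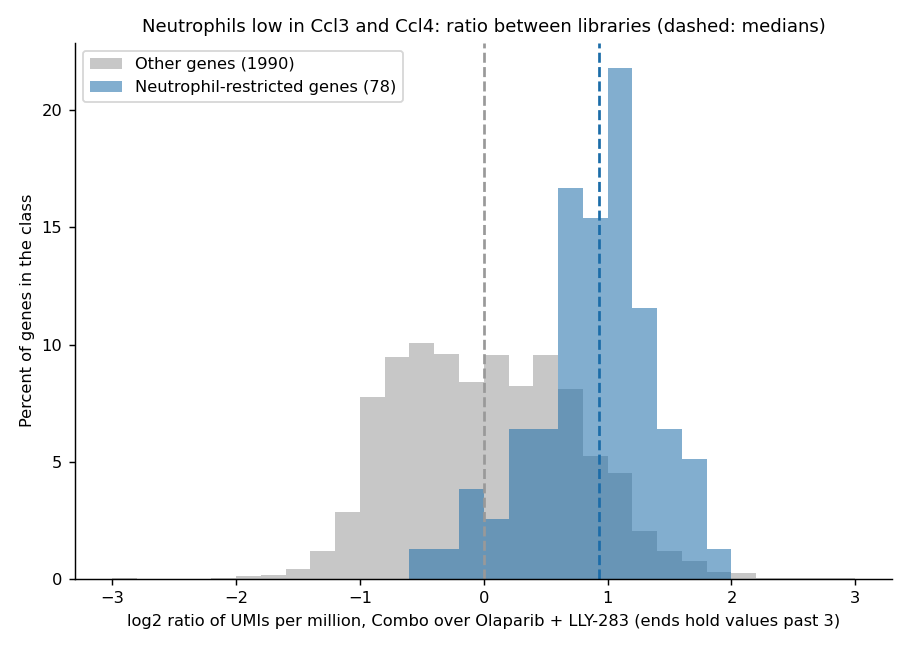
Distribution of the log2 ratio of CPM, Combo over Olaparib + LLY-283, in the neutrophils low in Ccl3 and Ccl4, as percent of genes in each class; dashed lines mark the medians of the 78 neutrophil-restricted genes and of the 1990 other genes. The neutrophil-restricted genes center on 0.93 and the other genes near 0.

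Of the maturity genes, 12 are among those 78, so their values relative to the 78 partly compare the list with itself. The same holds for 5 of the 7 counted specific granule genes and 4 of the 10 cytokine genes. Of 17 counted genes 8 were at least 2-fold higher in the Combo members and none lower, beside 10.7% and 4.64% of all genes, with a median of 0.82 on the CPM scale and -0.12 relative to the 78 genes. Hdc was higher by a log2 ratio of 1.64 (1.42 to 1.86) and stayed higher relative to the 78 genes, at 0.70. Mxd1, at 1.12, was close to the shift, with a relative value of 0.19. Retnlg went the other way over all members, at -0.34 (-0.50 to -0.18) and a relative value of -1.28, but its direction depended on depth, with 0.69 among cells of 1000 to 4000 UMIs and -2.25 among those under 2000 UMIs. In the Ccl-high neutrophils it was lower still in the Combo library, 621 against 1698 CPM, a log2 ratio of -1.45. Granule genes were mixed. Of the 7 counted genes of the specific granule list, 3 were at least 2-fold higher in the Combo members on the CPM scale, Hp by 1.24, Pglyrp1 by 1.09 and Mmp8 by 1.84, with relative values of 0.30, 0.16 and 0.91. Lcn2 had a log2 ratio of 0.54, which was -0.43 among cells under 2000 UMIs, and a relative value of -0.40, and Lyz2 one of -0.78 and a relative value of -1.72. Relative to the 78 genes, 0 of the 7 were at least 2-fold higher and 2 at least 2-fold lower, with a median of -0.40, beside 46.0% of all genes lower on that scale.

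Other lists differed in how far they moved. The 6 oxidase genes had a median of 1.04 (relative 0.11), the 18 receptor genes 0.85 (relative -0.09) and the 10 cytokine genes 0.41 (relative -0.52), with 3, 6 and 0 genes at least 2-fold higher, beside 10.7% of all genes. The 14 tumor neutrophil genes had a median of 0.20 (relative -0.74) and the 19 glycolysis and hypoxia genes -0.21 (relative -1.15, with 11 at least 2-fold lower, beside 46.0% of all genes). Immediate early genes, which dissociation of tissue can switch on, summed to 14734 CPM in the Olaparib + LLY-283 members and 26039 CPM in the Combo members. Their median log2 ratio was 0.70, with 6 of 15 at least 2-fold higher and 0 lower, beside 10.7% and 4.64% of all genes. Relative to the 78 genes the median was -0.24, with 1 higher and 1 lower, beside 0.532% and 46.0% of all genes. Of the immediate early genes, Junb stood at 1848 and 3983 CPM, Dusp1 at 1994 and 4029 CPM and Btg2 at 910 and 2616 CPM. Egr1 stood at 878 and 1900 CPM and Fos at 1788 and 2900 CPM. Heat shock genes ran against them, with sums of 4813 and 2941 CPM and a median of -0.77 (relative -1.70). The interferon list was higher in the Combo members by a log2 ratio of its sum of 0.41 (0.33 to 0.50), with 5 of 21 genes at least 2-fold higher, among them Slfn4 (352 and 766 CPM) and Slfn1 (267 and 648 CPM), but relative to the 78 genes the ratio was -0.52.

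Some of the genes furthest apart rested on few UMIs. Nr4a1, an orphan nuclear receptor induced by acute signals, had 2 UMIs (8.09 CPM) in the Olaparib + LLY-283 members and 152 UMIs (117 CPM) in the Combo members, a log2 ratio of 3.54 (1.98 to 6.91). Txnip, an inhibitor of thioredoxin, stood at 121 and 541 CPM, Ogfrl1 at 48.5 and 265 CPM, the pyrin gene Mefv at 20.2 and 99.4 CPM, Igsf6 at 28.3 and 132 CPM, and the cytokine signaling inhibitor Socs1 at 24.3 and 104 CPM. Relative to the 78 genes these 6 ranged from 1.06 for Socs1 to 2.60 for Nr4a1, where 0.532% of all genes were at least 2-fold higher. That scale lowers every gene by the same amount, and the 6 are among those with the largest ratios. Their place on it is therefore no separate check. At the other end Igfbp7, expressed by stromal and tumor cells, stood at 477 and 116 CPM and the peptide hormone Adm at 194 and 64.7 CPM. Mmp3, ranked last with 118 and 2 UMIs, came from 0.364% of the Olaparib + LLY-283 members, which is 1 cell, and is no property of the population.

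The members were not uniform. A Retnlg UMI was found in 90 of the 275 Olaparib + LLY-283 members (32.7%) and 207 of the 618 Combo members (33.5%). Some genes were higher in these cells than in the members without it, in both libraries. S100a8 stood at 35812 against 18225 CPM with Olaparib + LLY-283 and 51936 against 28948 CPM with the antibody added. Lcn2 stood at 897 against 250 CPM and 1023 against 438 CPM, Mmp8 at 114 against 29.7 CPM and 402 against 88.3 CPM, and Wfdc21 at 733 against 315 CPM and 1170 against 517 CPM. Not all genes went that way. Cxcl2 stood at 15139 against 13794 CPM and 18802 against 22039 CPM. Cxcr2 differed little, at 493 against 434 CPM and 1122 against 1029 CPM, as did Il1b, at 9793 against 8982 CPM and 16160 against 16086 CPM. Deeper cells are more likely to show a Retnlg UMI, and the median depth was 672.5 against 653 UMIs and 2207 against 1769 UMIs. Markers of other cell types differed too. Dendritic cell genes summed to 88.5 against 1755 CPM and 115 against 1121 CPM, and macrophage genes to 986 against 1499 CPM and 574 against 850 CPM. Fibroblast genes summed to 1883 against 2647 CPM and 3249 against 937 CPM.

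Depth and content moved together differently in the 2 libraries. In the Olaparib + LLY-283 library the 226 cells with 500 to under 1000 UMIs carried 31285 CPM of S100a8 and 2200 CPM of Retnlg, and the 17 cells with 2000 to under 4000 UMIs 7035 and 419 CPM. In the Combo library the order was the opposite, with 20458 and 256 CPM in 56 cells of 500 to under 1000 UMIs and 51268 and 2092 CPM in 255 cells of 2000 to under 4000 UMIs. In the 226 Olaparib + LLY-283 cells, macrophage, dendritic cell and fibroblast genes summed to 375, 95.3 and 1171 CPM. In the 17 cells they summed to 1897, 4521 and 4675 CPM. The Combo library had 538, 128 and 1280 CPM in the 56 cells and 270, 81.1 and 838 CPM in the 255 cells. The part of this RNA in the differences by depth was not tested. Cells with 4000 UMIs or more, 3 and 17 in number, held 3614 and 542 CPM of C1qa. Among neutrophils under 2000 UMIs the log2 ratio of Retnlg over Ccl-high cells in the Combo library was -0.32, so its 1.03 there came with the deeper cells.

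**Figure D5:**
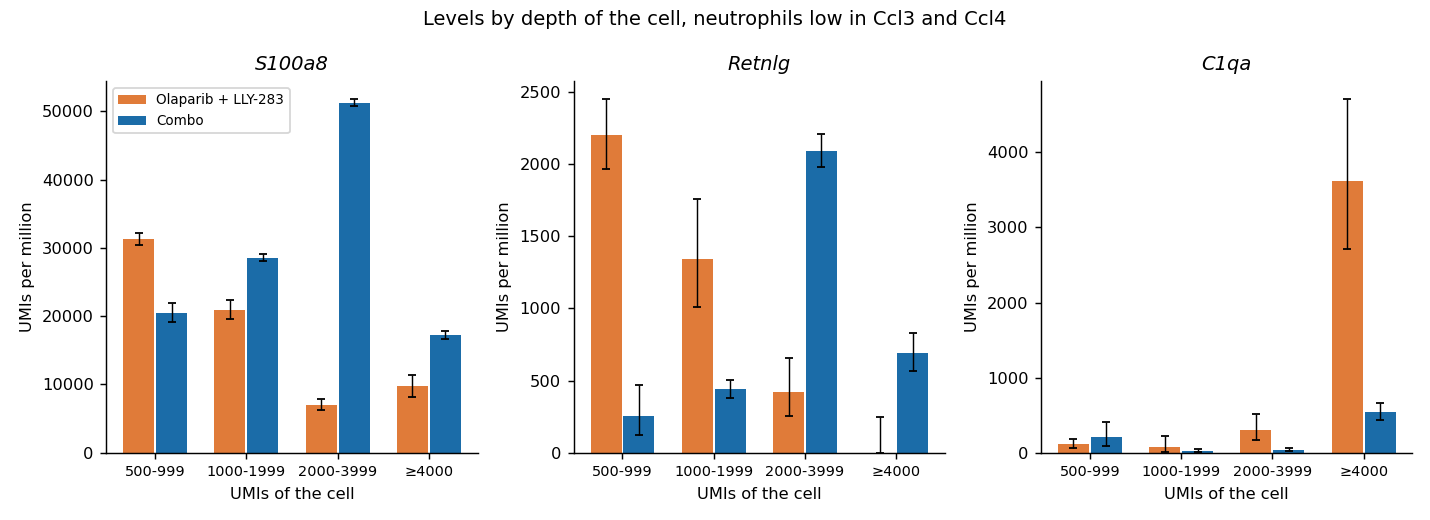
Levels of S100a8, Retnlg and C1qa in CPM (bars from 0, exact 95% Poisson intervals) in the neutrophils low in Ccl3 and Ccl4, by the UMIs of the cell and by library. Below 4000 UMIs, S100a8 and Retnlg are lowest in the deepest class in the Olaparib + LLY-283 library and highest there in the Combo library, and C1qa is highest in the cells with 4000 UMIs or more, at 3614 and 542.

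The remaining lists concern division, survival, metabolism and the drugs. The 12 cell cycle genes summed to 732 and 416 CPM, below the 1080 and 629 CPM of other non-tumor cells. The 15 genes of survival and death summed to 3005 and 4637 CPM, beside 3722 and 5127 CPM in Ccl-high cells. Mcl1, on which neutrophil survival depends, stood at 2018 and 3355 CPM against 401 and 929 CPM in other non-tumor cells. The 21 glycolysis and hypoxia genes summed to 11413 and 10348 CPM, beside the 12411 and 12637 CPM of Ccl-high cells. The 14 genes known from suppressive neutrophils summed to 12796 and 13330 CPM, beside 13822 and 12702 CPM in Ccl-high cells. S100a6 alone gave 6406 and 5324 CPM of the members' sums. The list also summed to 9179 and 8717 CPM in other non-tumor cells and 8677 and 9310 CPM in tumor cells, so much of it is not particular to neutrophils. The drug targets themselves were scarce. Prmt5 had 3 and 20 UMIs, Parp1 3 and 19 UMIs, and Pdcd1, which encodes PD-1, 0 and 1 UMI.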

How the data were processed

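Droplet 3′ single-cell RNA was measured in 2 libraries, 1 per group. The authors deposited UMI counts per gene and cell barcode (mm10), made with Cell Ranger, version 7.0.0 in the study's methods and 6.1.2 in the file headers. The deposited counts were not normalized and not corrected for free RNA. Per-sample columns not used numbered 0.

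The cells and gene lists were chosen with earlier results of these data known. Counts were summed over the cells of a population and library, as CPM or log2 ratios (0.5 UMI added), and genes at least 2-fold apart were counted among those with at least 100 UMIs. Named genes are the listed genes, the 12 ranked highest over other non-tumor cells, the 12 furthest above and 12 furthest below Ccl-high cells (by the smaller ratio of the libraries) and the 10 furthest apart each way between libraries. The steps were checked on simulated counts. Other rules, depth ranges, scalings, gene minimums, fold limits and doublet scores (Scrublet in scanpy 1.11.5) were tried. Calculations used Python 3.11.15, numpy 2.4.6, scipy 1.17.1 and pandas 2.3.3. The submitters' processing notes also name Seurat 4.1.0 and bcl2fastq 5.0.1. Promoters came from RefSeq (GRCm38.p6). Some genes are not reported here.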

Additional observations from a re-analysis of the deposited data

Results flagged for a closer look

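Cells with 20% or more mitochondrial UMIs were outside every comparison, and 6 of 81 such cells in the Olaparib + LLY-283 library and 8 of 1582 in the Combo library met the rest of the rule. They carried 10580 and 26626 CPM of S100a8. Retnlg had 0 UMIs in the 6 cells and stood at 2048 CPM (45 UMIs) in the 8 cells.

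Nr4a1 lay on opposite sides of the Ccl-high neutrophils in the 2 libraries, with a log2 ratio of -2.29 (-5.73 to -0.48) in the Olaparib + LLY-283 members, from 2 UMIs, and 1.09 (0.68 to 1.51) in the Combo members. The difference between these ratios was not tested.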

How the results depend on the processing

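With 1 pooled library per group no value has a replicate check. No paired analysis was possible because the groups share no replicate and the values come from no test. Scrublet's own threshold called 0 cells, so the highest scores up to the expected share (2055 and 284 cells, of which 29 and 12 were members) were removed, and this choice, the under 2000 UMIs, other-type markers, neutrophil-restricted and Lyz2 settings were added after seeing the data. Depth limits the Olaparib + LLY-283 members most. Where a value moved, the cause was not tested. Pairs below give Olaparib + LLY-283 first and Combo second. The share of non-tumor cells, 4.82% and 21.1%, became 1.24% and 22.9% with at least 500 genes per cell, 4.07% and 19.4% with neutrophil genes at 2%, 3.63% and 17.5% with Ccl3 and Ccl4 under 0.1%, 3.32% and 13.05% with no UMI of either, and 1.89% and 12.5% with keratins at most 0.1% of UMIs. The 221 genes higher in the Combo members became 432 with 500 genes per cell, 140 with neutrophil genes at 2%, 142 with no Ccl3 or Ccl4 UMI, 445 for cells of 1000 to 4000 UMIs, 80 under 2000 UMIs, 642 and 59 at a minimum of 20 and 500 UMIs per gene, 522 at 1.5-fold and 11 relative to the neutrophil-restricted genes. The 96 lower genes became 269 with 500 genes, 150 with the keratin limit, 257 for 1000 to 4000 UMIs, 27 under 2000 UMIs, 61 without high doublet scores, 987 and 13 at 20 and 500 UMIs, 458 at 1.5-fold and 952 relative to the restricted genes. The interferon difference of 0.41 was 0.75 with 500 genes, 0.28 with neutrophil genes at 2%, 0.27 with every cell weighing the same, 0.61 for 1000 to 4000 UMIs, 0.12 under 2000 UMIs, 0.33 without high doublet scores and -0.52 relative to the restricted genes.

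The specific granule sum over other non-tumor cells (0.51 and -1.43) was 0.61 and -1.34 with neutrophil genes at 2%, 0.21 and -1.48 with no Ccl3 or Ccl4 UMI, 1.34 and 0.92 with the keratin limit, -0.31 and -0.85 with every cell weighing the same, -0.67 and 0.48 for 1000 to 4000 UMIs, -0.046 and -1.57 without cells rich in other markers, 0.18 and -1.97 under 2000 UMIs, -1.51 and -1.84 against other non-tumor cells with a Ptprc UMI, and 1.30 and 1.70 without Lyz2. In the Olaparib + LLY-283 library alone it moved to 0.87 with 500 genes, 0.10 without cells rich in C1q and 0.69 without high doublet scores, and in the Combo library alone to -1.28 under median-ratio scaling. The tumor neutrophil sum over Ccl-high cells stayed negative throughout. In the Olaparib + LLY-283 library it moved from -0.53 to -0.25 with 500 genes, -0.63 with the keratin limit, -0.62 with every cell weighing the same, -0.27 for 1000 to 4000 UMIs, -0.68 under median-ratio scaling, -0.62 under 2000 UMIs and -0.66 without high doublet scores, and in the Combo library from -0.71 to -0.64 with no Ccl3 or Ccl4 UMI, -0.67 with every cell weighing the same, -0.87 under median-ratio scaling and -0.55 under 2000 UMIs.

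Turned below means a change of sign in a gene at least 2-fold apart in the reported setting. Of the values of named genes over other non-tumor cells, 235 stayed within counting error, 155 moved and 0 turned. Over Ccl-high neutrophils 694 stayed, 197 moved and 19 turned, and between libraries 331 stayed, 157 moved and 2 turned. Among genes under 2-fold apart, 5, 24 and 15 more values changed sign in the same 3 comparisons, between libraries for example Retnlg with 500 genes (1.52) and for 1000 to 4000 UMIs (0.69), and Lcn2 (-0.43) and Isg15 (-0.053) under 2000 UMIs. Those that turned in the Olaparib + LLY-283 library were Lyz2 with no Ccl3 or Ccl4 UMI (-0.54) and, for 1000 to 4000 UMIs, Lyz2 (-0.29), Rac2 (-0.014), Ripor2 (-0.014) and Fgl2 (-0.19). C1qb turned there without cells rich in C1q (-1.81) or other markers (-1.78) and under 2000 UMIs (-1.32), and Ccl7 without cells rich in other markers (-0.37). In the Combo library, with no Ccl3 or Ccl4 UMI, C1qa (-1.07), C1qb (-0.92) and Ccl7 (-1.83) turned, and for 1000 to 4000 UMIs C1qa (-0.24) and C1qb (-0.36). Under 2000 UMIs Retnlg (-0.32) and C1qa (-0.32) turned, without cells rich in other markers C1qb (-0.32), and C1qb also with neutrophil genes at 2% (-0.016) and every cell weighing the same (-0.076). Between libraries Mmp3 turned with no Ccl3 or Ccl4 UMI (0.10) and under 2000 UMIs (0.88). Values at least 2-fold apart could also fall under 2-fold without turning. Between libraries 12 fell under it and 11 stayed past it under 2000 UMIs, and 13 and 10 did so relative to the restricted genes. Over Ccl-high neutrophils 15 fell and 30 stayed under 2000 UMIs, and 14 and 31 for 1000 to 4000 UMIs. Fewer fell in the other settings.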
